A study of Mus musculus with 23 samples.

Results

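The complement and coagulation factors are plasma proteins of innate defence and of clotting, and their genes were described here across livers of young mice that differed in exposure to maternal metabolic syndrome (MetS). The members are 40 named genes among the 49585 genes of the deposited count table, found by their Ensembl identifiers and grouped by role. By textbook source, 3 of them, C1qa, C1qb and C1qc, are made by macrophages, 34 by hepatocytes, and Cfp, C5ar1 and Cfd by other cells. Of the 40, 39 passed a minimum mean of 10 counts per library, and Cfd did not.

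Complement is a chain of proteases that starts from C1q bound to antibody, from mannose-binding lectins on sugars, or from slow activation of C3, and ends in the pore of the membrane attack complex. Coagulation is a parallel chain that ends when thrombin turns fibrinogen into fibrin. Hepatocytes secrete most of these proteins, whereas C1q in the liver is made chiefly by Kupffer cells, the resident macrophages, and properdin by myeloid cells.

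Polyadenylated RNA was sequenced from the livers of 23 C57Bl/6J mice, 1 library per animal, taken on postnatal day 21, except that MetS-Ct_97 is labelled day 22. The labels name diets with 10% and 45% fat, called control and high fat, and MetS dams are taken here to be those on the 45% fat diet. Pups of MetS-MetS (n = 5) were exposed to such dams before birth and while nursed. Pups of Ct-MetS (n = 6) were born to dams on the 10% fat control diet and nursed by 45% fat dams, pups of MetS-Ct (n = 6) were born to 45% fat dams and nursed by control dams, and pups of Ct-Ct (n = 6) met control dams at both times. Dams ate their diet for either 7 or 17 weeks, starting when 3 weeks old, and were mated to control-fed males, and every litter was set to 5 pups and fostered on the day of birth, in all 4 groups alike. For single animals, sex, litter and length of diet were not known, so siblings may be among the replicates and p-values measure the spread between these animals. Library totals ranged from 16876460 to 34527932 counts. Levels are in CPM, the usual library-scaled counts, on effective library sizes. In whole liver, more cells of a type and more RNA per cell cannot be told apart.

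The 40 members together held 4.10% to 4.51% of all counts in MetS-MetS, 3.95% to 4.77% in Ct-MetS, 4.10% to 4.66% in MetS-Ct and 4.55% to 4.78% in Ct-Ct. Per kilobase of exon, the most abundant in Ct-Ct were the fibrinogen chains and C3, with mean levels of 2330 CPM per kb for Fgg, 2040 for Fga, 1970 for C3 and 1690 for Fgb. Fga and C3 did not differ beyond their spread, with SDs of 114 and 305 CPM per kb. C1qb, C1qa and C1qc stood at 42.0, 33.5 and 19.4 CPM per kb, ranks 29, 30 and 34 of the 40. C2, Cfb, C5ar1 and Cfd were at means of 0.149, 0.159, 0.314 and 0.367 CPM per kb. Hepatocyte markers were high in every library, with Alb at 103000 to 124000 CPM in MetS-MetS, 95300 to 122000 in Ct-MetS, 88500 to 118000 in MetS-Ct and 84700 to 110000 in Ct-Ct.

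Changes were tested with edgeR's quasi-likelihood test on the counts of all genes, with Benjamini-Hochberg adjustment, and a gene below an adjusted p of 0.05 was called. Unless a setting is named, calls are from the fit of all 23 libraries with TMM scaling factors. Where the livers of 2 groups are said not to overlap, the share of all genes that separate likewise was not counted. In MetS-MetS against Ct-Ct, 2 of 39 members were called, C1qb and Cfp, both higher, where 5.78% of all 14466 tested genes were called. In Ct-MetS against Ct-Ct, 1 member was called, Cfp, where 0.954% of all genes were. With postnatal exposure, the 11 pups nursed by MetS dams against the 12 nursed by control dams with prenatal states averaged, 3 members were called, C1qb, Cfp and C8a, where 4.22% of all genes were. The members' shares, 5.13%, 2.56% and 7.69%, each rest on 3 genes or fewer and the first lies near its background. In MetS-Ct against Ct-Ct, 0 members and 0% of all genes were called by edgeR, with 4 members (10.3%, against 5.9% of all genes) at an unadjusted p under 0.05, and DESeq2 and limma-voom also called 0 members. With prenatal exposure 0 members and 0.00691% of all genes were called, with 6 members at an unadjusted p under 0.05, a share of 15.4% against 16.3% of all genes. For the interaction 0 members and 0% of genes were called, with 1 member, Cfp, at an unadjusted p under 0.05 (edgeR adjusted p = 0.892), against 5.44% of all genes. DESeq2 and limma-voom called 0 members for both. Over all genes DESeq2 called 3 higher and 11 lower in MetS-Ct, 118 and 47 with prenatal exposure and 4 and 0 for the interaction. Limma-voom called 0 and 0, 0 and 1, and 0 and 0 in the same order. The count in MetS-MetS was 4 without MetS-MetS_39, without Ct-MetS_50 or without Ct-Ct_33, 1 without Ct-Ct_139 and 0 without Ct-Ct_129. The count in Ct-MetS was 0 without any of Ct-MetS_169, Ct-Ct_139, Ct-Ct_129, Ct-Ct_10 and Ct-Ct_4, and 2 without MetS-MetS_39, MetS-MetS_110 or Ct-Ct_130.

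**Figure D1:**
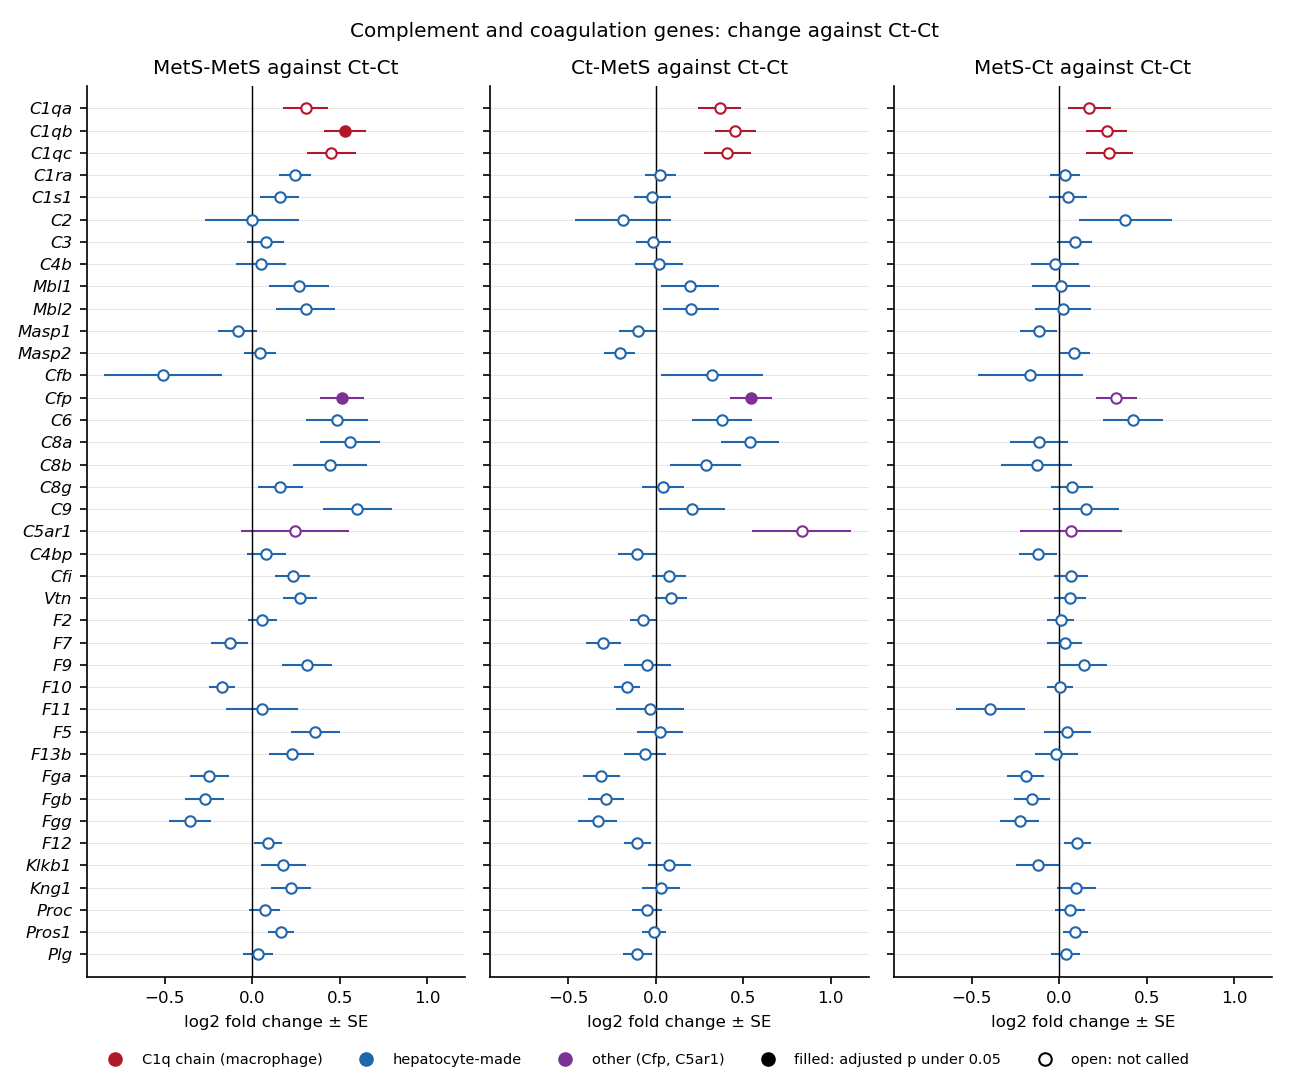
Fold changes of the 39 tested members, in 3 panels, MetS-MetS, Ct-MetS and MetS-Ct, each against Ct-Ct. The x axis is the log2 fold change with its SE, genes run down the page by role, and filled points are called. C1qa, C1qb, C1qc and Cfp lie right of 0 in all 3 panels and the fibrinogen chains left of it, from -0.36 to -0.25 in MetS-MetS.

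C1qa, C1qb and C1qc encode the A, B and C chains of C1q, the recognition molecule of the classical pathway, in which the 3 chains wind into a collagen-like stalk. The genes lie side by side within 18675 bases of chromosome 4 on the minus strand. The stretches upstream of C1qb and C1qc are shown because the chains' levels moved side by side, and they were taken from RefSeq (GRCm38.p6, chr4:136886201-136886450 and chr4:136893066-136893164, minus strand). They are printed no further than the start that GENCODE annotates, and capitals mark GAGGAA, a core bound by ETS factors such as the macrophage factor PU.1, on either strand.
C1qb: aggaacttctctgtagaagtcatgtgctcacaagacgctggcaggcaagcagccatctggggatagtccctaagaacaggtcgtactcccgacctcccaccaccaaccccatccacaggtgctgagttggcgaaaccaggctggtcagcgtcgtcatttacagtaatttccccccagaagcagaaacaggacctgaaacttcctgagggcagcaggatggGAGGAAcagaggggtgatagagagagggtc
C1qc: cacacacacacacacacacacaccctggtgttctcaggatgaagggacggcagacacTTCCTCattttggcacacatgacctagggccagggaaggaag
Each window held 1 GAGGAA, 30 bases before the RefSeq start of C1qb and, on the reverse strand, 193 bases before that of C1qc. GAGGAA occurs in 23.3% of the 32851 RefSeq windows of 250 bases, and TATAAA in 12.4%. The other motifs searched on both strands, the TATA box letters TATAAA and the C/EBP core TTGCNNAA, were in neither window.

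C1qb (ENSMUSG00000036905, chr4:136880129-136886187 in GRCm38, minus strand) rose in MetS-MetS livers. It stood at 93.0, 66.3, 49.2, 53.7 and 67.8 CPM in MetS-MetS_39, MetS-MetS_109, MetS-MetS_110, MetS-MetS_154 and MetS-MetS_157, the order kept for every gene here, against 40.7, 45.5 and 52.4 CPM as the lowest, median and highest of the 6 Ct-Ct livers. All but MetS-MetS_110 lay above every Ct-Ct liver. The log2 fold change was 0.53 ± 0.12 (SE), or 1.44-fold, with an adjusted p of 0.0179 by edgeR's quasi-likelihood test. C1qb had a lowest, median and highest of 52.9, 61.3 and 76.3 CPM in Ct-MetS and 52.5, 54.5 and 59.3 CPM in MetS-Ct. No liver of either group fell to the Ct-Ct range, yet neither change was called in the fit of all libraries, at 0.45 ± 0.12 (edgeR adjusted p = 0.0608) and 0.27 ± 0.12 (adjusted p = 0.825). The Ct-MetS change was called by DESeq2 (adjusted p = 0.0149), by edgeR on library totals alone (adjusted p = 0.0425) or with upper quartile factors (adjusted p = 0.0417), and by edgeR without MetS-MetS_39, MetS-MetS_110 or Ct-Ct_130 (adjusted p = 0.0214, 0.0414 and 0.050). With postnatal exposure C1qb rose by 0.36 ± 0.085 (adjusted p = 0.0195), on the side of the change in 10 of 11 livers. The MetS-MetS call was lost without Ct-Ct_129 (adjusted p = 0.0508) and when these 2 groups were fitted alone (adjusted p = 0.0602), while the postnatal call was kept in 23 of 23 fits that left out 1 library.

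C1qc had 75.9, 48.1, 40.5, 37.7 and 53.9 CPM in the 5 MetS-MetS livers, and lowest, median and highest values of 42.4, 47.8 and 64.6 CPM in Ct-MetS, 40.9, 44.5 and 53 CPM in MetS-Ct and 32.0, 37.6 and 42.9 CPM in Ct-Ct. C1qa had 60.6, 44.1, 33.1, 33.2 and 44.2 CPM in the same MetS-MetS livers, and 38.2, 43.4 and 58.1 CPM in Ct-MetS, 36.6, 39.6 and 41.7 CPM in MetS-Ct and 30.7, 35.2 and 39.3 CPM in Ct-Ct. For both genes the groups overlapped, and MetS-MetS_39 and Ct-MetS_50 were the highest livers. Against Ct-Ct, C1qc was at 0.45 ± 0.14 in MetS-MetS (edgeR adjusted p = 0.056), 0.41 ± 0.13 in Ct-MetS (adjusted p = 0.144) and 0.29 ± 0.13 in MetS-Ct (adjusted p = 0.825). C1qa was at 0.30 ± 0.13 (adjusted p = 0.144), 0.37 ± 0.12 (adjusted p = 0.152) and 0.17 ± 0.12 (adjusted p = 0.851) in the same order. Without MetS-MetS_39 the changes in MetS-MetS were 0.27 for C1qc and 0.15 for C1qa. DESeq2 called C1qc in MetS-MetS (adjusted p = 0.033), as did edgeR without Ct-MetS_50 (adjusted p = 0.0427) or without MetS-MetS_154 (adjusted p = 0.0333). All 3 chains were thus positive in each comparison with Ct-Ct, and in the edgeR fit of all libraries 1 of the 3, C1qb, was called in MetS-MetS and 0 in the other comparisons with Ct-Ct. Over all 23 libraries C1qb stood at 1.12 to 1.42 times C1qc and C1qa at 0.779 to 0.967 times C1qc. The median of C1qa to C1qc was 0.819 in MetS-MetS, 0.901 in Ct-MetS, 0.869 in MetS-Ct and 0.948 in Ct-Ct. That of C1qb to C1qc was 1.26, 1.26, 1.21 and 1.21 in the same order. Differences in these proportions were not tested.

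**Figure D2:**
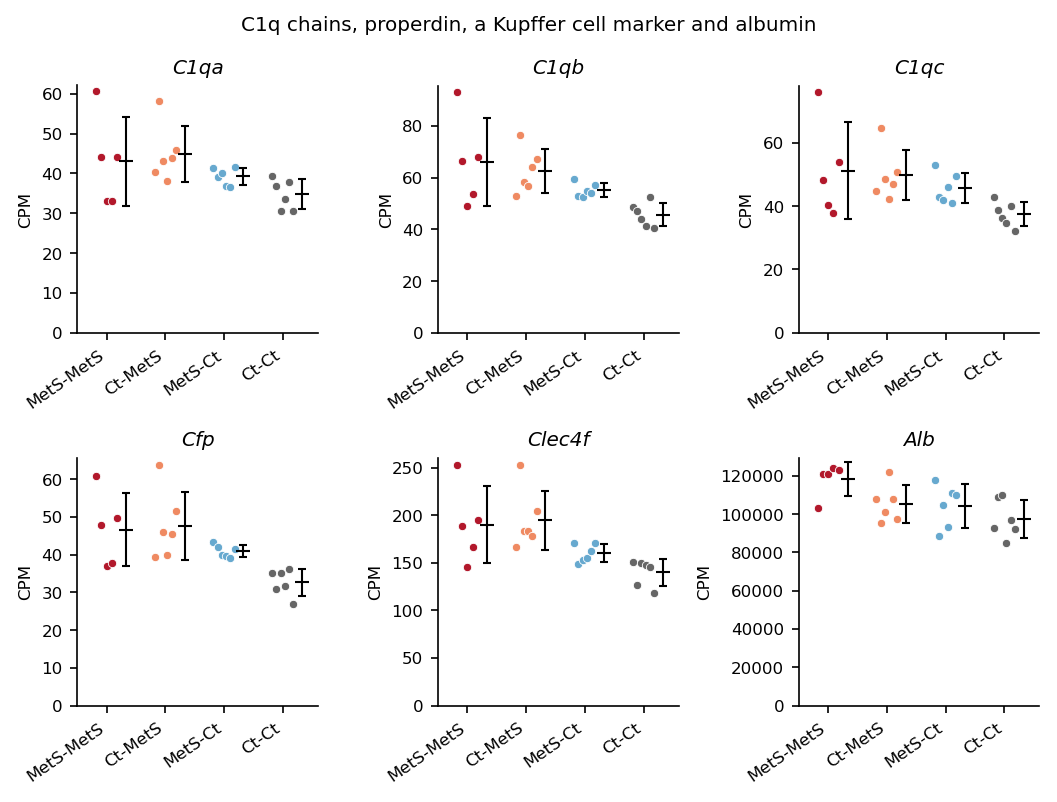
CPM by library for C1qa, C1qb, C1qc, Cfp, the Kupffer cell gene Clec4f and albumin (Alb), with 1 point per liver, groups from left to right MetS-MetS, Ct-MetS, MetS-Ct and Ct-Ct, and bars at mean ± SD. MetS-MetS_39 and Ct-MetS_50 are the highest points for each C1q chain, at 93.0 and 76.3 CPM for C1qb, and for Clec4f, both at 253 CPM.

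The Kupffer cell markers moved with the C1q chains. Of 14 listed markers 14 were tested and 0 were at 0 in every library. EdgeR called 9 higher in MetS-MetS, 8 in Ct-MetS, 0 in MetS-Ct and 7 with postnatal exposure, none of them lower. Over all genes 5.78%, 0.954%, 0% and 4.22% were called, in the same order. With postnatal exposure 13 markers were positive and 1 was negative, at -0.05. With 0 called in MetS-Ct, 6 of the 14 (42.9%, against 5.9% of all genes) were at an unadjusted p under 0.05 there. Their summed level was 612 to 945 CPM in MetS-MetS, 677 to 952 in Ct-MetS, 622 to 716 in MetS-Ct and 467 to 619 in Ct-Ct. Clec4f, a lectin found on Kupffer cells, rose by 0.44 ± 0.12 in MetS-MetS and 0.48 ± 0.11 in Ct-MetS (edgeR adjusted p = 0.0318 and 0.0413). Adgre1, the F4/80 antigen, rose by 0.61 ± 0.13 and 0.63 ± 0.13 (adjusted p = 0.0147 and 0.0224), and Cd68, a macrophage lysosomal protein, by 0.65 ± 0.13 and 0.70 ± 0.12 (adjusted p = 0.0107 and 0.0187). The ratio of C1qb to Clec4f ranged from 0.324 to 0.367 in MetS-MetS, 0.302 to 0.361 in Ct-MetS, 0.334 to 0.356 in MetS-Ct and 0.280 to 0.369 in Ct-Ct, so that the groups overlapped. Its log2 mean differed from Ct-Ct by 0.0772 in MetS-MetS, -0.0185 in Ct-MetS and 0.0778 in MetS-Ct (exact permutation p = 0.342, 0.810 and 0.307, two-sided). These are 3 of 12 ratio tests chosen after the values were seen, and the smallest p adjusted over the 12 was 0.078. The part of the Kupffer cell genes' change in that of C1q was not tested.

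The proteases that C1q carries, C1r and C1s, come from hepatocytes and were not called. C1ra had 186, 212, 198, 186 and 181 CPM in the 5 MetS-MetS livers, and 125 to 188 CPM in Ct-MetS, 148 to 183 CPM in MetS-Ct and 148 to 171 CPM in Ct-Ct. Every MetS-MetS liver lay above every Ct-Ct liver, at 0.24 ± 0.092 on the log2 scale, and the change was not called (edgeR adjusted p = 0.106). C1s1 was at 0.16 ± 0.11 (adjusted p = 0.411), and in Ct-MetS and MetS-Ct both genes lay between -0.02 and 0.05.

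C3, on which all activation routes converge, stood at 10100 to 11300 CPM in MetS-MetS, 8600 to 11300 in Ct-MetS, 9400 to 11700 in MetS-Ct and 8440 to 12200 in Ct-Ct. The groups overlapped throughout, at 0.08 ± 0.11 in MetS-MetS, -0.01 ± 0.10 in Ct-MetS and 0.09 ± 0.10 in MetS-Ct (edgeR adjusted p = 0.707, 0.975 and 0.913). C4b, a part of the classical convertase, was between -0.02 and 0.05 in these comparisons, and its reads can be shared with the near-identical C4a. C2 and Cfb, which give the convertases their protease, were close to the detection limit, with 6 to 29 and 5 to 31 counts per library. Their exons share 42.8% and 79.5% of their bases with the readthrough gene Gm20547 on the same strand, which is listed at 0 in every library, so these levels are uncertain. C2 was at -0.28 ± 0.20 with postnatal exposure (adjusted p = 0.436) and 0.38 ± 0.27 in MetS-Ct (adjusted p = 0.851).

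The lectin pathway starts from the mannose-binding lectins Mbl1 and Mbl2, whose proteases are Masp1 and Masp2. In the edgeR fit of all libraries 0 of the 4 were called in any comparison, and Mbl2 was called with postnatal exposure when MetS-MetS_39 and Ct-MetS_50 were both left out (0.33, edgeR adjusted p = 0.0444). Mbl2 stood at 512 to 737 CPM in MetS-MetS, 363 to 786 in Ct-MetS, 417 to 609 in MetS-Ct and 403 to 662 in Ct-Ct, with Mbl1 and Mbl2 at 0.27 ± 0.17 and 0.30 ± 0.17 in MetS-MetS (edgeR adjusted p = 0.358 and 0.267). Masp2 had 262, 322, 279, 265 and 328 CPM in the 5 MetS-MetS livers, and 220 to 271 CPM in Ct-MetS, 264 to 327 in MetS-Ct and 255 to 342 in Ct-Ct. It had the smallest p of the 4 with prenatal exposure, at 0.17 ± 0.064 (adjusted p = 0.224), and was at -0.21 ± 0.088 in Ct-MetS (adjusted p = 0.293). Of its exonic bases 54.9% lie opposite Tardbp, and no source used here says whether strand entered the counting.

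Cfp (ENSMUSG00000001128, chrX:20925454-20931555 in GRCm38, minus strand) encodes properdin, which stabilises the C3 convertase of the alternative pathway and comes from myeloid cells. It was called higher in MetS-MetS and in Ct-MetS. It had 60.8, 47.9, 37.1, 37.8 and 49.6 CPM in the 5 MetS-MetS livers, and lowest, median and highest values of 39.4, 45.7 and 63.7 CPM in Ct-MetS, 39.2, 40.7 and 43.4 CPM in MetS-Ct and 26.8, 33.5 and 36.3 CPM in Ct-Ct. Every liver of the exposed groups, MetS-Ct included, lay above every Ct-Ct liver. MetS-MetS_110 and MetS-MetS_154, at 37.1 and 37.8 CPM, lay below every MetS-Ct liver. The log2 fold change was 0.51 ± 0.12 in MetS-MetS (edgeR adjusted p = 0.0206), 0.55 ± 0.12 in Ct-MetS (adjusted p = 0.0273) and 0.33 ± 0.12, not called, in MetS-Ct (adjusted p = 0.825). With postnatal exposure it rose by 0.37 ± 0.085 (adjusted p = 0.0181), on the side of the change in 11 of 11 livers, and that call was kept in 23 of 23 fits that left out 1 library. The MetS-MetS call was lost without Ct-Ct_129 or Ct-Ct_139, and the Ct-MetS call without Ct-MetS_169 or any of Ct-Ct_139, Ct-Ct_129, Ct-Ct_10 and Ct-Ct_4 (largest adjusted p = 0.0738) and when the 2 groups were fitted alone (adjusted p = 0.0566). The ratio of Cfp to Clec4f was 0.228 to 0.255 in MetS-MetS, 0.218 to 0.255 in Ct-MetS, 0.242 to 0.283 in MetS-Ct and 0.216 to 0.249 in Ct-Ct, and its difference from Ct-Ct was greatest in MetS-Ct, at 0.13 on the log2 scale (exact permutation p = 0.013, 0.078 adjusted over the 12 ratio tests).

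Cfd, the protease adipsin that cleaves factor B and a product of adipocytes, was below the count minimum. It had 88 counts in MetS-MetS_110, 13 in MetS-MetS_154 and 50 in Ct-Ct_10, and at most 3 in any other library. The adipocyte genes were high in MetS-MetS_110 and Ct-Ct_10: Adipoq had 37 and 11 counts, Plin1 34 and 18, and Retn 11 and 5. In MetS-MetS_154 Adipoq had 9, Plin1 2 and Retn 1. Elsewhere they reached 3 (Adipoq, Ct-MetS_145), 2 (Plin1, Ct-Ct_130) and 2 (Retn, Ct-Ct_129), and Lep had 0 in every library. Without MetS-MetS_110 and Ct-Ct_10, a choice made after seeing the data, the members called numbered 2 in MetS-MetS, 0 in Ct-MetS and 3 with postnatal exposure.

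The terminal components C6, C8 and C9 build the membrane pore on C5b. C8 is a complex of an alpha, a beta and a gamma chain, and the genes of the first pair, C8a and C8b, face each other on chromosome 4 with 11130 bases between their ends, while C8g lies on chromosome 2.

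C8a (ENSMUSG00000035031, chr4:104815679-104876398 in GRCm38, minus strand) rose with postnatal exposure. It had 341, 540, 564, 462 and 486 CPM in the 5 MetS-MetS livers, and lowest, median and highest values of 328, 499 and 573 CPM in Ct-MetS, 236, 304 and 362 CPM in MetS-Ct and 227, 352 and 411 CPM in Ct-Ct. MetS-MetS_39, Ct-MetS_50 and Ct-MetS_169, at 341, 328 and 359 CPM, overlapped with livers nursed by control dams, and the other livers nursed by MetS dams lay above all of these. The postnatal log2 fold change was 0.60 ± 0.12, or 1.52-fold (edgeR adjusted p = 0.00784), on the side of the change in 11 of 11 livers, and the call was kept in 23 of 23 fits that left out 1 library. Against Ct-Ct alone, C8a was at 0.56 ± 0.17 in MetS-MetS (adjusted p = 0.0555), 0.54 ± 0.17 in Ct-MetS (adjusted p = 0.119) and -0.11 ± 0.17 in MetS-Ct (adjusted p = 0.927). The MetS-MetS change was called by edgeR without Ct-Ct_33, Ct-MetS_50 or MetS-MetS_39 (adjusted p = 0.0284, 0.0427 and 0.0317).

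C8b, chosen for naming after its values were seen, had 230, 295, 290, 243 and 268 CPM in the 5 MetS-MetS livers, and 130, 266 and 322 CPM in Ct-MetS, 134, 177 and 224 CPM in MetS-Ct and 131, 203 and 243 CPM in Ct-Ct. Ct-MetS_50 and Ct-MetS_169 were its lowest 2 livers in Ct-MetS, at 130 and 143 CPM, as they were for C8a. Its postnatal change of 0.43 ± 0.15 was not called (edgeR adjusted p = 0.095), but was without Ct-MetS_50 (0.49, adjusted p = 0.0294). C8g was at 0.06 ± 0.087 (adjusted p = 0.716), with an interval of -0.11 to 0.24 at 2 SE. The ratio of C8a to C8b was 1.48 to 1.94 in MetS-MetS, 1.61 to 2.52 in Ct-MetS, 1.5 to 1.91 in MetS-Ct and 1.45 to 1.84 in Ct-Ct. In Ct-MetS this ratio exceeded that in Ct-Ct by 0.31 on the log2 scale, and C8a to C8g by 0.51 (exact permutation p = 0.0195 for both, 0.078 adjusted over the 12 ratio tests). Neither difference between chains therefore passed.

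C9, the pore-forming subunit, had 162, 218, 209 and 202 CPM in MetS-MetS_39, MetS-MetS_109, MetS-MetS_110 and MetS-MetS_157 and was lowest in MetS-MetS_154, still above Ct-Ct, against a lowest, median and highest of 91.3, 127 and 150 CPM in Ct-Ct. The groups did not overlap, at 0.60 ± 0.20 on the log2 scale, and the change was not called (edgeR adjusted p = 0.0693). It was called by edgeR when these 2 groups were fitted alone (adjusted p = 0.0332) and without Ct-Ct_33 or Ct-MetS_145 (adjusted p = 0.0499 and 0.0461). C9 was at 0.21 ± 0.19 in Ct-MetS, where it ranged from 87.7 to 222 CPM, and 0.15 ± 0.19 in MetS-Ct (adjusted p = 0.716 and 0.919). C6, at 15.5 to 33.6 CPM in MetS-MetS, 17.6 to 32.7 in Ct-MetS, 17.3 to 29.3 in MetS-Ct and 14.0 to 20.9 in Ct-Ct, was positive in all 3 comparisons, at 0.48 ± 0.18, 0.38 ± 0.17 and 0.42 ± 0.17 (adjusted p = 0.103, 0.320 and 0.825). All 5 tested terminal components were positive in MetS-MetS and in Ct-MetS, and 0 of 5 were called there by edgeR. At an unadjusted p under 0.05 were 4 and 2 of the 5. Over all genes the shares at that p were 24.4% and 13.9%. DESeq2 called C8a and C9 in MetS-MetS and C8a in Ct-MetS.

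**Figure D3:**
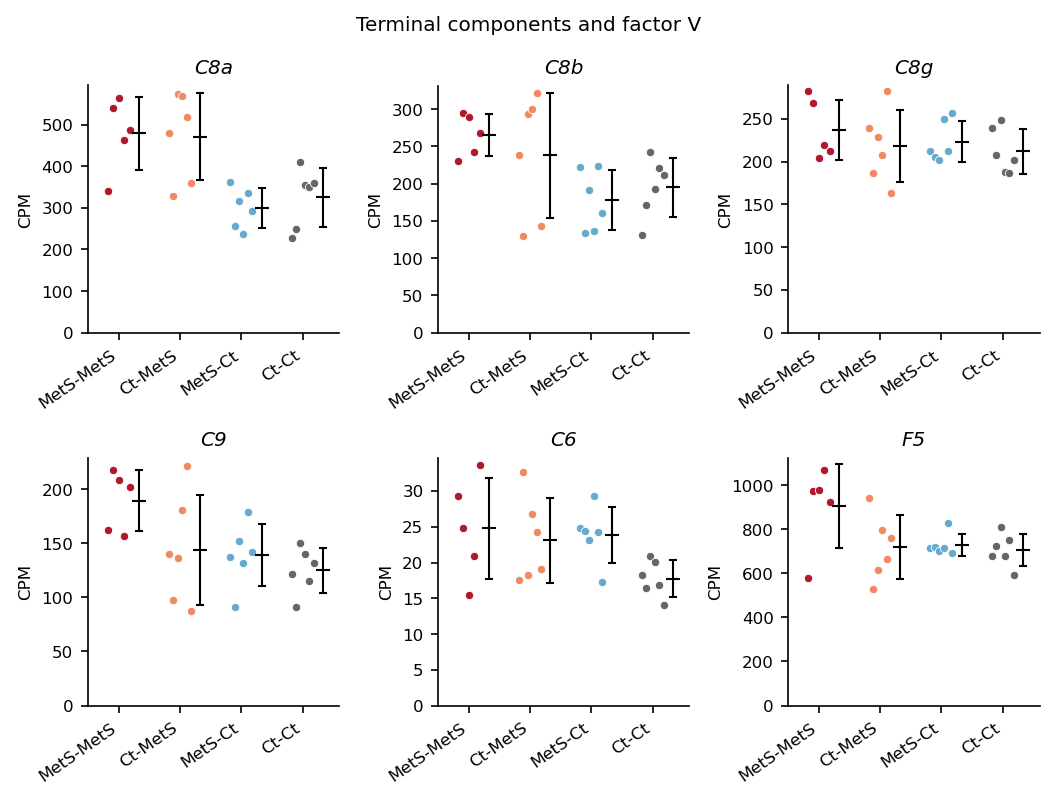
CPM by library for C8a, C8b, C8g, C9, C6 and F5, with 1 point per liver, groups from left to right MetS-MetS, Ct-MetS, MetS-Ct and Ct-Ct, and bars at mean ± SD. C8a averages 479 and 471 CPM in MetS-MetS and Ct-MetS, against 300 and 325 CPM in MetS-Ct and Ct-Ct, while C8g averages 212 to 237 CPM in all 4 groups.

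C5ar1, the receptor of myeloid cells for the C5a fragment, had 11 to 79 counts per library. It stood at 0.851, 0.996, 1.24, 1.01 and 0.711 CPM in the 5 MetS-MetS livers, and had a lowest, median and highest of 0.535, 1.36 and 2.58 CPM in Ct-MetS, 0.473, 0.866 and 1.13 CPM in MetS-Ct and 0.572, 0.767 and 1.34 CPM in Ct-Ct. The groups overlapped, and the largest change, 0.83 ± 0.28 in Ct-MetS, was not called (edgeR adjusted p = 0.162). The 8 monocyte and neutrophil markers summed to 11.8 to 20.5 CPM in MetS-MetS, 12.4 to 25.8 in Ct-MetS, 11.1 to 29.8 in MetS-Ct and 8.54 to 28.6 in Ct-Ct, with 1 of the 8 at 0 in every library and 0 of the 5 tested called. Of those 5, 0 were at an unadjusted p under 0.05 in MetS-MetS and MetS-Ct, and 1 (20.0%) in Ct-MetS. Over all genes these shares were 24.4%, 5.9% and 13.9%.

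The complement regulators C4bp, Cfi and Vtn, which bind or cleave C4b and C3b or hold back the pore, were not called. Vtn, encoding vitronectin, had 2830, 3130, 2830, 2840 and 2630 CPM in the 5 MetS-MetS livers, and lowest, median and highest values of 1960, 2630 and 2920 CPM in Ct-MetS, 2250, 2490 and 2630 CPM in MetS-Ct and 2180, 2310 and 2640 CPM in Ct-Ct. All but MetS-MetS_157 lay above the highest Ct-Ct liver. The log2 fold change was 0.27 ± 0.096 (edgeR adjusted p = 0.0868), and DESeq2 called it (adjusted p = 0.0363). Cfi, the protease factor I, was at 0.23 ± 0.10 in MetS-MetS (edgeR adjusted p = 0.154), and the regulators lay between -0.12 and 0.09 in Ct-MetS and MetS-Ct.

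Among the coagulation proteases, 0 of prothrombin (F2) and factors VII, IX, X and XI were called by edgeR in the fit of all libraries. F10, which cleaves prothrombin, had 614, 667, 653, 610 and 633 CPM in the 5 MetS-MetS livers, and lowest, median and highest values of 540, 657 and 694 CPM in Ct-MetS, 683, 720 and 754 CPM in MetS-Ct and 625, 732 and 758 CPM in Ct-Ct. Its postnatal change was -0.17 ± 0.053, with 11 of 11 livers nursed by MetS dams below the mean of the others, and was not called by edgeR (adjusted p = 0.0646) but was by DESeq2 (adjusted p = 0.00584), by edgeR on library totals alone (adjusted p = 0.044) and by edgeR without Ct-Ct_33 (adjusted p = 0.0298). On library totals alone edgeR also called F10 in MetS-MetS, at -0.27 (adjusted p = 0.0291). F7, 1498 bases upstream of F10 on chromosome 8 and the protease that tissue factor engages, was at -0.23 ± 0.072 with postnatal exposure (edgeR adjusted p = 0.070), and was called by DESeq2 (adjusted p = 0.0326) and by edgeR on library totals alone or without Ct-MetS_65 (adjusted p = 0.043 and 0.0371). Its median level was 159 CPM in MetS-MetS, 134 in Ct-MetS, 167 in MetS-Ct and 164 in Ct-Ct. F9, factor IX, was of the opposite sign in MetS-MetS, at 0.31 ± 0.14 (adjusted p = 0.180), and F2 lay between -0.07 and 0.06 in the 3 comparisons with Ct-Ct. F11 was at -0.39 ± 0.20 in MetS-Ct (adjusted p = 0.825), and its lowest level in MetS-MetS was 82.6 CPM, in MetS-MetS_39.

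F5, the cofactor of factor Xa, had 580, 973, 977, 1070 and 924 CPM in the 5 MetS-MetS livers, and lowest, median and highest values of 530, 711 and 940 CPM in Ct-MetS, 690, 716 and 828 CPM in MetS-Ct and 593, 703 and 809 CPM in Ct-Ct. The MetS-MetS livers except MetS-MetS_39 lay above every Ct-Ct liver, whereas MetS-MetS_39 lay below all of them, as Ct-MetS_50 did at 530 CPM. The change in MetS-MetS was 0.36 ± 0.14 and was not called (edgeR adjusted p = 0.118), while without MetS-MetS_39 it was 0.48 and called (adjusted p = 0.0265). The same 2 livers were the highest of their groups in C1qb, and MetS-MetS_39 was also the lowest of its group in C8a, C8b, F7 and F11. F13b, the carrier subunit of factor XIII, was at 0.23 ± 0.13 in MetS-MetS (adjusted p = 0.280).

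Fibrinogen consists of an alpha, a beta and a gamma chain, encoded by Fga, Fgb and Fgg within 42140 bases of chromosome 3. The stretches upstream of all 3 are shown because the chains lay lower side by side (RefSeq GRCm38.p6, chr3:83025903-83026075, plus strand, for Fga, chr3:83049864-83050113, minus strand, for Fgb and chr3:83007474-83007723, plus strand, for Fgg), with capitals for TTGCNNAA, a core bound by C/EBP factors of the liver, on either strand.
Fga: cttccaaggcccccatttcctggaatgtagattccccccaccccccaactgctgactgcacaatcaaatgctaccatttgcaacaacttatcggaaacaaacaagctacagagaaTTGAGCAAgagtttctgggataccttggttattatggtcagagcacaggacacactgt
Fgb: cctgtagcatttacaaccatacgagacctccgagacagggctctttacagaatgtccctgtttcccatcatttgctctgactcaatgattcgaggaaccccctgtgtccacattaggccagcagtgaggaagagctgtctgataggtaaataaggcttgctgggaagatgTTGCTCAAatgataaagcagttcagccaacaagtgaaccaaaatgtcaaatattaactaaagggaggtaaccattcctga
Fgg: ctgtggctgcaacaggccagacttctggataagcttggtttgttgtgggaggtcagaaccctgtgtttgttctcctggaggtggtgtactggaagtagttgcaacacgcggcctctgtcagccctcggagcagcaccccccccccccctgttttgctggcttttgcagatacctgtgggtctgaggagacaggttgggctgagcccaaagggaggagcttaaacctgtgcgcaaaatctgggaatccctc
TTGCNNAA, found in 9.56% of the RefSeq windows, lay 80 bases before the RefSeq start of Fgb and, on the reverse strand, 135 bases before the RefSeq start of Fga, whose stretch ends at the earlier GENCODE start. Fgb also held GAGGAA in 2 places, and no matches overlapped. None of the 3 motifs was in the Fgg window.

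Fgg had 4300, 3870, 3610, 3930 and 3300 CPM in the 5 MetS-MetS livers, and lowest, median and highest values of 2820, 3850 and 4810 CPM in Ct-MetS, 3460, 4300 and 4780 CPM in MetS-Ct and 4270, 4870 and 5380 CPM in Ct-Ct. All MetS-MetS livers but MetS-MetS_39 lay below the lowest Ct-Ct liver. The log2 fold change was -0.36 ± 0.12 in MetS-MetS (edgeR adjusted p = 0.070), -0.33 ± 0.11 in Ct-MetS (adjusted p = 0.158) and -0.23 ± 0.11 in MetS-Ct (adjusted p = 0.825), none of them called. DESeq2 called the MetS-MetS change (adjusted p = 0.030), as did edgeR on library totals alone (adjusted p = 0.0179) or without Ct-MetS_169 (adjusted p = 0.0449). With postnatal exposure Fgg was at -0.23, and DESeq2 called that change too (adjusted p = 0.0496).

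Fgb had 5850, 5430, 5020, 5450 and 4830 CPM in the 5 MetS-MetS livers, and lowest, median and highest values of 4090, 5130 and 6720 CPM in Ct-MetS, 4740, 5870 and 6650 CPM in MetS-Ct and 5920, 6510 and 6920 CPM in Ct-Ct. Fga had 5820, 5350, 4740, 5680 and 4290 CPM in the same MetS-MetS livers, and 3950, 4930 and 5890 CPM in Ct-MetS, 4570, 5440 and 6440 CPM in MetS-Ct and 5680, 6170 and 6510 CPM in Ct-Ct. The MetS-MetS and Ct-Ct livers did not overlap in Fgb, and overlapped in Fga. In MetS-MetS, Fgb was at -0.27 ± 0.11 (edgeR adjusted p = 0.127) and Fga at -0.25 ± 0.11 (adjusted p = 0.173). On library totals alone edgeR called both (adjusted p = 0.0249 and 0.0377). All 3 chains were negative in each comparison with Ct-Ct, with 3, 3 and 0 at an unadjusted p under 0.05 in MetS-MetS, Ct-MetS and MetS-Ct. Over all genes the shares at that p were 24.4%, 13.9% and 5.9%. Fgg stood at 0.676 to 0.792 times Fgb and Fga at 0.840 to 1.04 times Fgb over the 23 libraries. The median of Fgg to Fgb was 0.719 in MetS-MetS, 0.728 in Ct-MetS, 0.724 in MetS-Ct and 0.772 in Ct-Ct. That of Fga to Fgb was 0.986, 0.954, 0.954 and 0.965 in the same order, and neither was tested. Together the 3 chains held 1.18% to 1.51% of counts in MetS-MetS, 1.19% to 1.73% in Ct-MetS, 1.27% to 1.72% in MetS-Ct and 1.62% to 1.90% in Ct-Ct.

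**Figure D4:**
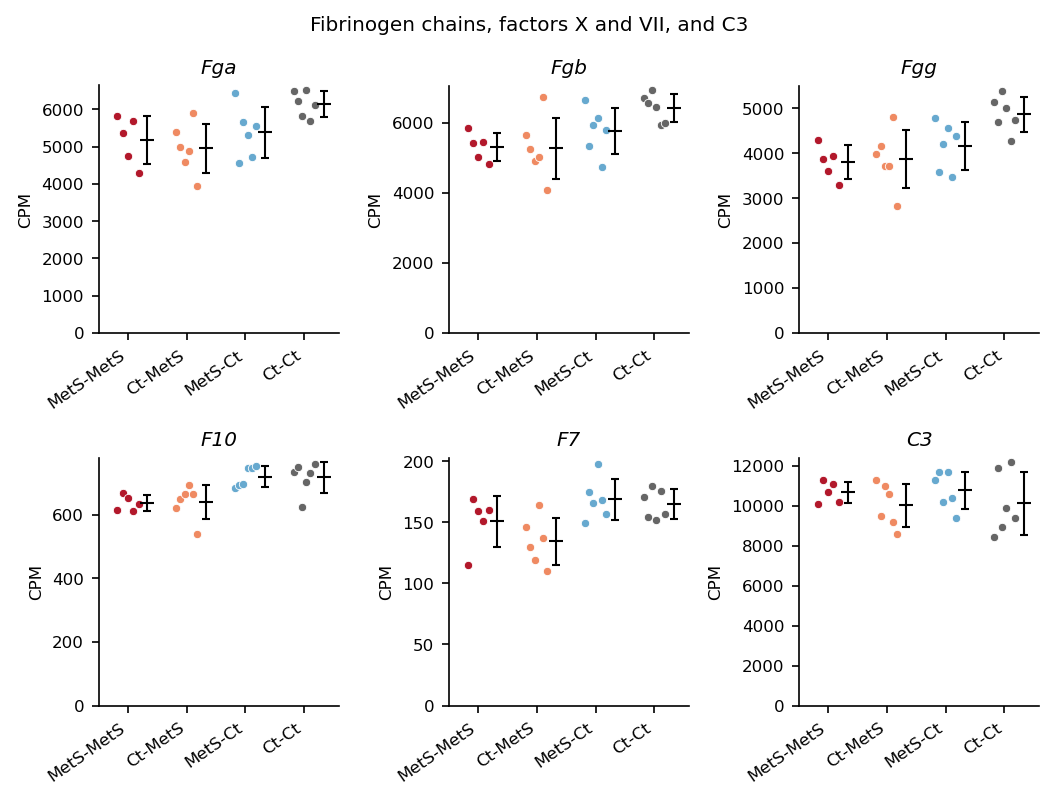
CPM by library for Fga, Fgb, Fgg, F10, F7 and C3, with 1 point per liver, groups from left to right MetS-MetS, Ct-MetS, MetS-Ct and Ct-Ct, and bars at mean ± SD. Fgb averages 5320, 5270 and 5760 CPM in MetS-MetS, Ct-MetS and MetS-Ct, against 6420 CPM in Ct-Ct, whereas C3 overlaps throughout.

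Fibrinogen is also an acute phase protein, and 12 other acute phase genes were listed beside it. Their median log2 fold change was 0.28 in MetS-MetS, 0.10 in Ct-MetS and 0.05 in MetS-Ct. EdgeR called 1 of the 12 in MetS-MetS and 1 with postnatal exposure, both higher, where 5.78% and 4.22% of all genes were called. At an unadjusted p under 0.05 were 3 of the 12 in MetS-MetS, 2 in Ct-MetS and 2 with postnatal exposure. Over all genes the shares at that p were 24.4%, 13.9% and 21.2%, in the same order. Crp rose by 0.53 ± 0.15 in MetS-MetS (edgeR adjusted p = 0.0361) and Lcn2, lipocalin, by 0.88 ± 0.25 with postnatal exposure (adjusted p = 0.0464).

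The contact system and the anticoagulants were not called. F12, factor XII, stood at 536 to 581 CPM in MetS-MetS, 439 to 530 in Ct-MetS, 488 to 628 in MetS-Ct and 475 to 572 in Ct-Ct, and had its smallest p with prenatal exposure, at 0.15 ± 0.056 (edgeR adjusted p = 0.219). Kng1, kininogen, was at 0.22 ± 0.12 in MetS-MetS (adjusted p = 0.243) and Klkb1, prekallikrein, at 0.18 ± 0.13 (adjusted p = 0.424), and 43.2% of the exonic bases of Klkb1 are shared with Gm45753 on the same strand. Pros1, protein S, had 94.5, 105, 104, 99.7 and 105 CPM in the 5 MetS-MetS livers, against 88.2, 90.6 and 93.8 CPM as the lowest, median and highest in Ct-Ct. The groups did not overlap, yet the difference of 0.16 ± 0.073 was not called (edgeR adjusted p = 0.170). In this comparison 24.4% of all genes were at an unadjusted p under 0.05, and how many separate without overlap was not counted. Pros1 was at -0.01 ± 0.069 in Ct-MetS (edgeR adjusted p = 0.975). Proc, protein C, and Plg, plasminogen, lay between -0.11 and 0.07 in the 3 comparisons with Ct-Ct.

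Set against the C1q chains, the 34 hepatocyte-made members had medians nearer to 0. Their median log2 fold change was 0.12 in MetS-MetS, -0.02 in Ct-MetS and 0.03 in MetS-Ct, against 0.45, 0.41 and 0.27 for the 3 C1q chains and medians of -0.004, -0.013 and -0.001 over all genes tested. Of the 34, 26, 15 and 22 were positive in these comparisons, 14, 8 and 1 were at an unadjusted p under 0.05 and 0 were called by edgeR. These unadjusted shares were 41.2%, 23.5% and 2.94%, against 24.4%, 13.9% and 5.9% of all genes. DESeq2 called C8a, C9, Vtn and Fgg in MetS-MetS and C8a in Ct-MetS. With postnatal exposure edgeR called C8a, and DESeq2 called C8a, F7, F10 and Fgg, of which the last 3 were lower. On library totals alone the all-gene median in MetS-MetS shifted to -0.10, and the hepatocyte-made medians became 0.03 in MetS-MetS, 0.02 in Ct-MetS and -0.002 in MetS-Ct, so that the sign in Ct-MetS and in MetS-Ct rests on the scaling, while the C1q medians stayed at 0.36, 0.46 and 0.24. Without MetS-MetS_39 the C1q median in MetS-MetS was 0.27.

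The mean of the C1q log2 fold changes exceeded the mean of the hepatocyte-made ones by 0.31 in MetS-MetS, 0.41 in Ct-MetS and 0.24 in MetS-Ct. These differences are descriptions without a test. In MetS-MetS the value was 0.12 when MetS-MetS_39 was left out. By library, the C1q chains lay 0.055 to 0.95 above the Ct-Ct mean of log2 CPM in MetS-MetS, 0.21 to 0.76 above it in Ct-MetS and 0.15 to 0.38 above it in MetS-Ct, with Ct-Ct livers from -0.19 to 0.16. The hepatocyte-made members ranged from -0.034 to 0.22 in MetS-MetS, -0.25 to 0.17 in Ct-MetS, -0.092 to 0.079 in MetS-Ct and -0.081 to 0.16 in Ct-Ct. MetS-MetS_39 and Ct-MetS_50 had the highest C1q values of their groups, 0.95 and 0.76, beside hepatocyte-made values of -0.034 and -0.20, among the lowest of theirs.

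**Figure D5:**
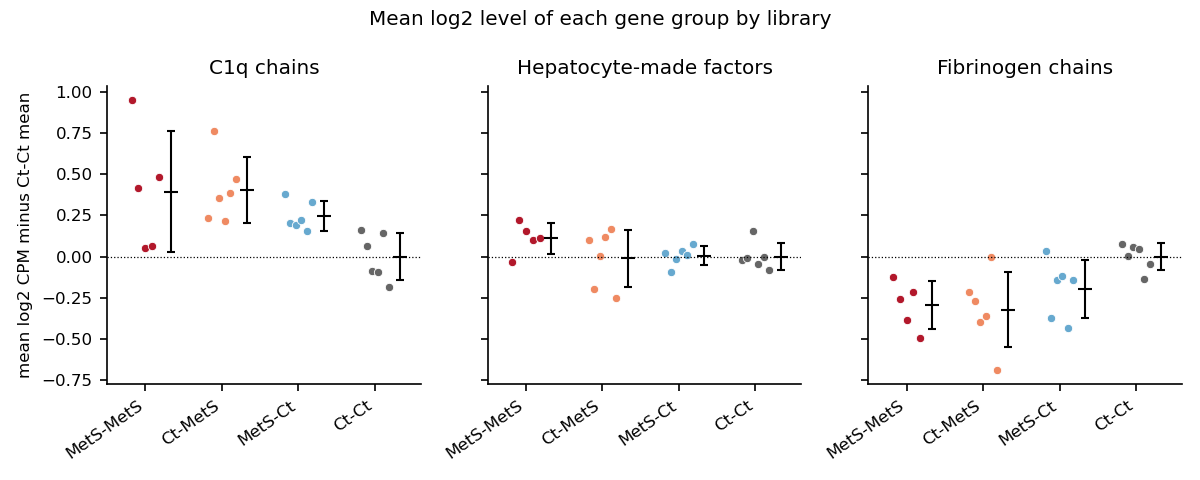
Mean log2 CPM of the 3 C1q chains, the 34 hepatocyte-made members and the 3 fibrinogen chains, less the Ct-Ct mean, with 1 point per liver, groups from left to right MetS-MetS, Ct-MetS, MetS-Ct and Ct-Ct, and bars at mean ± SD. C1q values reach 0.95 in MetS-MetS, against -0.19 to 0.16 in Ct-Ct, and fibrinogen values run from -0.49 to -0.13 in MetS-MetS, against -0.14 to 0.077 in Ct-Ct.

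Genes of the same pathways outside the 40 were also tested. Of 23 listed complement genes 22 were tested, and edgeR called 2 higher and 1 lower in MetS-MetS, 1 higher in Ct-MetS and 1 each way with postnatal exposure. These were 13.6%, 4.55% and 9.09% of those tested, against 5.78%, 0.954% and 4.22% of all genes. Serping1, the C1 inhibitor, stood at 535 to 650 CPM in MetS-MetS and 390 to 492 CPM in Ct-Ct, without overlap, and rose by 0.48 ± 0.13 (adjusted p = 0.0307). Clu, clusterin, which keeps the pore out of membranes, stood at 897 to 979 CPM in MetS-MetS and 641 to 759 CPM in Ct-Ct, also without overlap, and rose by 0.41 ± 0.098 (adjusted p = 0.0202). Cd46, a membrane cofactor of factor I, fell by 0.81 on the log2 scale (SE 0.21, adjusted p = 0.0268) at a low level, 1.91 to 3.13 CPM in MetS-MetS and 2.42 to 5.43 CPM in Ct-Ct.

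Itgb2, the beta chain of complement receptor 3 on leukocytes, stood at 10.7 to 17.8 CPM in Ct-MetS and 7.85 to 10.5 CPM in Ct-Ct and rose by 0.63 ± 0.13 (edgeR adjusted p = 0.0201). Fcna, ficolin A, a lectin of liver macrophages in the mouse, rose by 0.31 ± 0.087 with postnatal exposure (adjusted p = 0.0448). Of 26 listed coagulation genes outside the members, among them F8, Serpinc1 and Tfpi, 25 were tested and edgeR called 0 in any comparison. Of these, 3 were at an unadjusted p under 0.05 in MetS-MetS, 4 in Ct-MetS and 7 with postnatal exposure.

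Markers of other liver cells were called less widely than those of Kupffer cells in count, over lists of unlike size and without a test. With postnatal exposure 7 of 14 Kupffer cell markers and 3 of 7 erythroid ones were called, where 4.22% of all genes were. The shares at an unadjusted p under 0.05 were 85.7% and 71.4%. Over all genes that share was 24.4% in MetS-MetS, 13.9% in Ct-MetS, 5.9% in MetS-Ct and 21.2% with postnatal exposure. Of 11 hepatocyte markers found, among them Alb, Ttr and Apoa1, 0 were called by edgeR in any comparison. At an unadjusted p under 0.05 were 3 (27.3%) in MetS-MetS, 3 (27.3%) in Ct-MetS and 0 in MetS-Ct. Of the 11, 8 were positive in MetS-MetS, 4 in Ct-MetS and 11 in MetS-Ct, with medians of 0.097, -0.098 and 0.095. Of 8 markers of sinusoidal endothelium, Emcn rose in MetS-MetS (0.47 ± 0.13, adjusted p = 0.0399) and with postnatal exposure. All 8 were positive in MetS-MetS and in Ct-MetS, with medians of 0.38 and 0.26 and 4 of 8 at an unadjusted p under 0.05 in each, and their summed level was 351 to 513 CPM in MetS-MetS, 348 to 512 in Ct-MetS, 337 to 542 in MetS-Ct and 317 to 411 in Ct-Ct. Of 8 stellate cell markers, Pdgfrb fell by 0.53 in MetS-MetS (SE 0.14, adjusted p = 0.0297) and Rgs5 rose by 0.48 ± 0.12 with postnatal exposure (adjusted p = 0.0283). Of 7 erythroid markers, 3 rose in MetS-MetS, 2 in Ct-MetS and 3 with postnatal exposure, among them Slc4a1, the anion exchanger of red cells, by 1.66 ± 0.21 with postnatal exposure (adjusted p = 0.000308). The erythroid markers were mixed in sign, with 1 of 7 negative in MetS-MetS, 4 in Ct-MetS and 6 in MetS-Ct, and medians of 0.18, -0.34 and -0.74. In MetS-Ct 0 were called by edgeR and 4 were at an unadjusted p under 0.05. Their summed level was 310 to 572 CPM in MetS-MetS, 150 to 363 in Ct-MetS, 143 to 241 in MetS-Ct and 214 to 598 in Ct-Ct. Of the 5 cholangiocyte, 8 lymphocyte and 3 tested platelet markers, 0 were called in any comparison, with 1, 1 and 0 at an unadjusted p under 0.05 in MetS-MetS. The part of these changes in those of the complement and coagulation genes was not tested.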

How the data were processed

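RNA was measured in 23 mouse livers. The submitters' processing notes list STAR, HTSeq, DESeq2 and FastQC, with versions, build, annotation and strand setting not given in the sources used here. Whole numbers with totals that differ between libraries fill the authors' deposited table, named as normalised, which was read as counts per gene without normalization. Genes with 1 count outnumbered those with 2 by 1.8 to 2.24 times in each library. The self-computed steps began with a minimum mean of 10 counts, which left 14466 of 49585 genes. TMM factors and edgeR 4.0.16's robust quasi-likelihood test (R 4.3.3) followed, with 1 mean for each of 4 groups over all 23 libraries, 6 contrasts, and Benjamini-Hochberg adjustment over all genes tested at 0.05. The script was tested on simulated data. CPM used TMM-scaled totals; levels per kilobase used merged GENCODE M21 exons. Ratios used exact two-sided permutation tests. RefSeq promoters (GRCm38.p6) held 31 of 40 members, and C1qa was not among them.

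Alternatives were DESeq2 1.42.0, limma-voom (limma 3.58.1), other scaling factors, no count minimum, fits of 2 groups, and each library left out. Described in full were the C1q chains, called members, and the member with the smallest p of each role without a call; C3, C8b, C8g, C9, C6, F7, F9, F11, Fga, Fgb and others beyond these were named after their values were seen. The members and gene lists were chosen with earlier results of these data known.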

Additional observations from a re-analysis of the deposited data

Results flagged for a closer look

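In 60 groups of levels by library, taken only from the members described in full, 2 had a liver far from the rest of its group. Chance flags about 1 in 20 groups. The other members were not screened, so the rate over all members is not known. C5ar1 stood at 1.34 CPM in Ct-Ct_130, against 0.572 to 0.784 CPM in the other Ct-Ct livers. F5 stood at 828 CPM in MetS-Ct_120, against 690 to 718 CPM in the other MetS-Ct livers. Among the members not screened, F13b stood at 383 CPM in Ct-Ct_33, against 263 to 279 CPM in the other Ct-Ct livers. Ct-Ct_33 was also highest in C1s1, at 571 against 421 to 458 CPM, and in Cfi, at 909 against 669 to 744 CPM. MetS-MetS_39 was lowest of its group in C1s1, at 410 against 524 to 545 CPM, and in Masp1, at 140 against 200 to 214 CPM.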

How the results depend on the processing

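The number of members called was 2 in MetS-MetS, 1 in Ct-MetS and 3 with postnatal exposure, and it moved with the settings. DESeq2 called 7, 3 and 6, library totals alone 6, 2 and 5, and upper quartile factors 2 in Ct-MetS. The fit of these 2 groups alone called 0 in Ct-MetS. Calls over all genes moved too. DESeq2 called 653 higher and 693 lower in MetS-MetS, 250 and 175 in Ct-MetS and 555 and 483 with postnatal exposure. The main edgeR fit gave 443 and 393, 85 and 53, and 329 and 282, in that order. Library totals alone gave 307 and 970, 128 and 37, and 280 and 275. With 1 library left out the member counts ranged from 0 to 4, 0 to 2 and 3 to 4. A pair of choices was added after seeing the data: without MetS-MetS_39 and Ct-MetS_50 the counts were 4, 3 and 6, and without MetS-MetS_110 and Ct-Ct_10 the Ct-MetS count was 0. The excess of C1q over hepatocyte-made members, 0.31 in MetS-MetS, was 0.12 without MetS-MetS_39 and Ct-MetS_50; with 1 library left out it ranged from 0.12 to 0.40 there and from -0.53 to -0.22 for the interaction, against -0.33 with all libraries.

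Signs turned for small changes. In MetS-MetS, library totals alone gave Masp2 -0.05 and F12 -0.006. With 1 library left out, Masp2 ranged from -0.002 to 0.107 there and C2 from -0.264 to 0.185, and C2 was 0.185 and 0.051 without the pairs above. In Ct-MetS, Pros1 was 0.02 with upper quartile factors and 0.027 on library totals. With 1 library left out, Pros1 ranged there from -0.047 to 0.026, F5 from -0.068 to 0.098 and C1ra from -0.013 to 0.095. On library totals, calls over all genes in MetS-MetS split into 307 higher and 970 lower, against 443 and 393 with TMM, and in Ct-MetS into 128 and 37, against 85 and 53; upper quartile factors gave 136 and 47 there. Over all genes, 127 rose and 92 fell in MetS-MetS without Ct-Ct_129, and 6 and 6 in Ct-MetS without Ct-MetS_169. The cause was not tested. No paired analysis was possible because animal numbers are not shared between groups. C2, Cfb and C5ar1 rest on few counts, 5 to 79 per library.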
